A study of Rattus norvegicus with 4 samples.

Results

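The sodium-potassium ATPase beta subunit genes Atp1b1, Atp1b2 and Atp1b3 were followed across the rat trigeminal ganglion, its nerve, glial tissue and brainstem in a Visium spatial transcriptome. The 3 genes were found by symbol among the 32623 genes of the matrix, each in a single row (ENSRNOG00000002934 for Atp1b1, ENSRNOG00000011227 for Atp1b2 and ENSRNOG00000011501 for Atp1b3). Visium captures polyadenylated RNA from a tissue section on spots that each carry a position barcode, and a spot covers several cells or parts of cells. Tissue of the trigeminal root, ganglion and proximal branches of Wild type, adult male Sprague-Dawley rats filled 4 capture areas. TN1, TN2 and TN3 came from the side with chronic compression of the trigeminal root, a model of trigeminal neuralgia (TN), with 1 animal each. The single healthy control area (HC) pooled tissue of 2 animals, so it gave no spread of its own. The study's methods describe the controls as sham-operated, whereas its Results and the series description take HC from the uncompressed side, by the latter in 2 of the 3 TN animals. TN against HC may therefore have compared sides of the same animals.

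The sodium-potassium pump uses ATP to move sodium out of the cell and potassium into it, and so restores the gradients that action potentials and transporters run down. Its alpha subunit carries out the transport, its beta subunit is a glycoprotein that folds the alpha subunit and brings it to the membrane, and small FXYD proteins adjust its kinetics. Atp1b1 is the widely used beta subunit and is high in neurons. Atp1b2, also known as adhesion molecule on glia, is known from astrocytes of the central nervous system. Atp1b3 is expressed in many tissues.

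The 4 areas held 6773 spots, between 1256 and 2013 each, with total counts of unique molecular identifiers (UMIs) from 23546025 in TN1 to 41335930 in HC. Median depth was higher in TN2, at 30808 UMIs per spot, than in the other areas, at 9487 to 14616. Of 3573 barcode sequences 2337 occurred in at least 2 areas, since the areas carry the same set of position barcodes. Spots were grouped into 10 clusters without using any gene of the pump's subunits or the FXYD family, and clusters were called regions by the marker list that led in them. Clusters 2 and 8, in which the sensory neuron list scored highest among the lists used for naming, are called the ganglion region. The nerve injury list, which was not used for naming, scored higher than it in cluster 8 (2.06 against 1.12, mean log2 difference from all clusters). In this region the 10 sensory neuron markers summed to 7037 to 8189 UMIs per 1000000 UMIs of the spots summed (CPM), against 721.1 to 1599 CPM in the central myelin region. The other named regions were led by markers of peripheral myelin, central myelin, astrocytes, central neurons, connective tissue, or blood and bone. The central neuron region was led by Rasgrf1, Slc7a10, Lamp5, Slc6a5 and Kcnc1. Slc32a1 and Pvalb were also among its 10 leading genes, which held 3 of the central neuron list. It had at least 20 spots only in TN1 (426 spots) and TN2 (131 spots). The astrocyte region had at least 20 spots only in TN2 (75) and TN3 (159), and the peripheral myelin region only in TN1 (409) and TN3 (389). Cluster 4, with a sensory neuron score of 1.32 and a peripheral myelin score of 1.16 (mean log2 difference from all clusters), and cluster 6, a mix of connective tissue and peripheral myelin scores, were left unnamed. Levels below are in CPM. Differences between regions are given as a description without a test, because the regions were cut from the same spots.

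Atp1b1 had its highest level in the central neuron region and the next in the ganglion. In the central neuron region it stood at 2327 CPM in TN1 and 3043 CPM in TN2, a mean of 2685 ± 506 (SD, n = 2). In the ganglion region the HC area had 1771 CPM and TN1, TN2 and TN3 had 1500, 949.6 and 1353, a mean of 1393 ± 343 (SD, n = 4). The 2 ranges did not overlap, and in both shared areas the central neuron region was the higher. Cluster 4 followed with 915 ± 153 CPM, and blood and bone with 710 ± 305 CPM (both SD, n = 4). Over areas each of these 2 overlapped in range with its neighbours in the order. Within areas the ganglion exceeded cluster 4, and blood and bone exceeded central myelin, in 4 of 4. Blood and bone spots also held neuron markers, in every area above those of central myelin. The 10 sensory neuron markers summed to 1157 to 3629 CPM there, against 721.1 to 1599 in central myelin. The 6 central neuron markers summed to 24.53 to 198.2 CPM, against 9.459 to 122.7. Their part in the level of Atp1b1 was not tested. The low end held the central myelin region at 399 ± 205 CPM (SD, n = 4), the astrocyte region at 355 ± 122 (n = 2), connective tissue at 298 ± 20.1 (n = 2), cluster 6 at 275 ± 82.7 (n = 2) and the peripheral myelin region at 217 ± 29.1 (n = 2). All neighbours within this low group overlapped.

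Within areas, Atp1b1 was 3.82-fold higher in the ganglion than in the central myelin region, with a log2 ratio of 1.93 ± 1.01 (SD, n = 4 areas) and the ganglion higher in 4 of 4. Against the peripheral myelin region the ganglion was 6.58-fold higher, with a log2 ratio of 2.72 ± 0.09 (SD, n = 2). With 8 clusters, 12 clusters or spots placed by their highest marker score, 4 areas could be compared and this ratio was 1.77, 1.89 or 1.59. The wide spread of the first ratio came with the central myelin region, where Atp1b1 stood at 621.1 CPM in TN1 and 513.1 in TN2 but at 170.3 in TN3 and 291.6 in HC. The 6 central neuron markers moved with these values. They summed to 123 CPM in TN1 and 85.1 in TN2, and to 9.46 in TN3 and 18.8 in HC, and their part in the level of Atp1b1 was not tested.

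Atp1b2 was high in the regions led by markers of central glia and central neurons and low in peripheral myelin. Its order over the regions differed from that of Atp1b1. Its highest levels were in the astrocyte region, at 309.7 CPM in TN2 and 397.4 in TN3, a mean of 354 ± 62.0 (SD, n = 2). The central neuron region, at 362.8 CPM in TN1 and 214.9 in TN2, overlapped with it, as did the central myelin region with the central neuron region. In the central myelin region Atp1b2 stood at 251.1, 195.1, 258.8 and 246.2 CPM in TN1, TN2, TN3 and HC, a mean of 238 ± 28.9 (SD, n = 4). A gap followed: blood and bone was at 106 ± 27.6 CPM (SD, n = 4), below the central myelin region in 4 of 4 areas and with no overlap of the ranges. The peripheral myelin region was at 75.8 ± 3.14 CPM (n = 2), connective tissue at 62.8 in both areas, cluster 6 at 52.1 ± 13.9 (n = 2) and cluster 4 at 46.2 ± 13.6 (n = 4). The ganglion had the lowest mean, with 30.8 CPM for HC and 45.5, 38.5 and 44.2 for TN1, TN2 and TN3, a mean of 39.7 ± 6.72 (SD, n = 4). Its range overlapped with that of cluster 4, which was the higher in 2 of 4 areas. These regions were mixed. The 7 astrocyte markers summed to 11140 and 11570 CPM in the astrocyte region and to 4673 to 8623 in central myelin. They summed to 1828 and 2728 CPM in the central neuron region and to 249.7 to 527.6 in the ganglion. Their part in the level of Atp1b2 was not tested.

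Within areas, the ganglion was 5.89-fold lower in Atp1b2 than the central myelin region, with a log2 ratio of -2.56 ± 0.28 (SD, n = 4) and the ganglion lower in 4 of 4 areas. It was also lower than the peripheral myelin region, by 0.74 ± 0.09 on the log2 scale (SD, n = 2). The astrocyte region was 1.56-fold higher than the central myelin region of the same area, with a log2 ratio of 0.64 ± 0.03 (SD, n = 2). Within the 2 areas with central neuron spots, that region exceeded central myelin by 0.33 ± 0.28 on the log2 scale, little more than the spread.

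Atp1b3 varied least between regions, and it was the only member of the 3 whose lowest level was among central neurons. The ganglion led with 706.7 CPM in HC, ahead of 656.1, 539.4 and 637.7 in TN1, TN2 and TN3, a mean of 635 ± 70.1 (SD, n = 4). The ganglion exceeded cluster 4 in 4 of 4 areas, although their ranges over areas overlapped. Cluster 4 at 540 ± 23.2 CPM, the peripheral myelin region at 532 ± 16.7, the central myelin region at 473 ± 50.1 and the astrocyte region at 451 ± 25.7 followed, each overlapping with its neighbour. Cluster 6 stood at 413 ± 0.71 CPM, connective tissue at 402 ± 13.7 and blood and bone at 324 ± 43.7, and each of these lay below its neighbour without overlap. Last was the central neuron region, at 192.2 CPM in TN1 and 217.2 in TN2. Atp1b3 was 2.30-fold lower there than in central myelin, with a log2 ratio of -1.20 ± 0.20 (SD, n = 2). The ganglion exceeded central myelin in 4 of 4 areas, by 0.42 ± 0.15 on the log2 scale (SD, n = 4), and peripheral myelin by 0.28 ± 0.07 (SD, n = 2). Because a spot sums several cells, fewer cells of a type and less RNA per cell cannot be told apart in any of these levels.

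**Figure D1:**
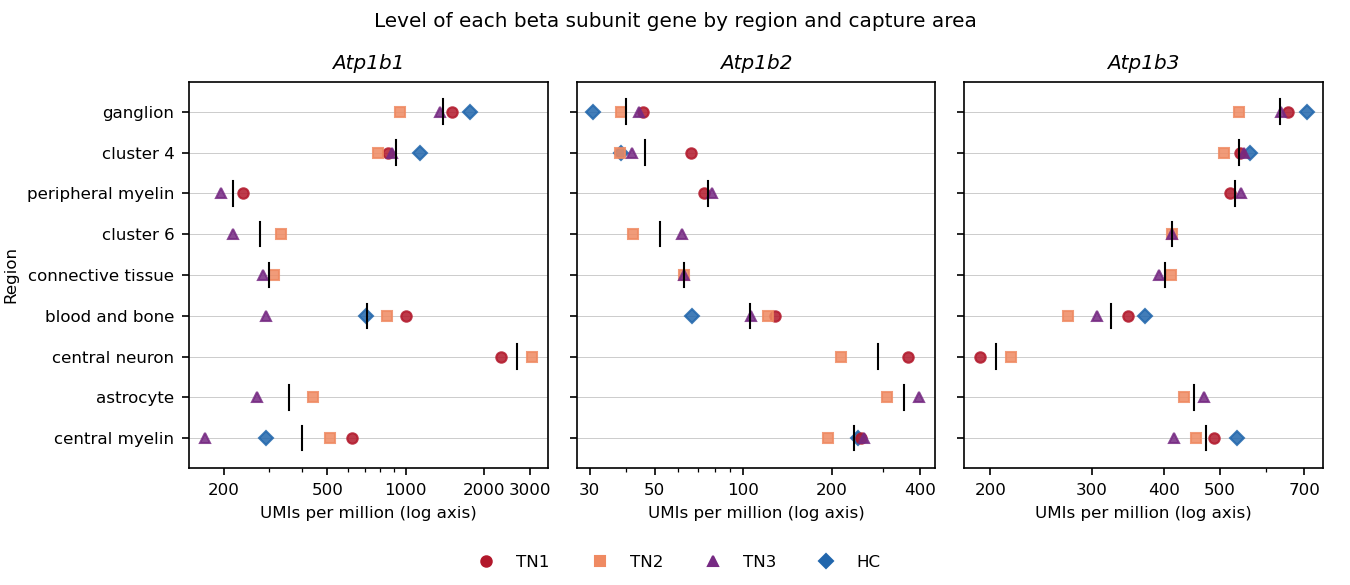
Level of Atp1b1, Atp1b2 and Atp1b3 in CPM (log axis, which differs between panels) for each region and capture area with at least 20 spots. Points are areas and vertical bars are the means over areas. Atp1b1 is high in the central neuron (2685) and ganglion (1393) regions, Atp1b2 is high in the astrocyte, central neuron and central myelin regions with its lowest mean in the ganglion (39.7), and Atp1b3 is lowest in the central neuron region.

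RefSeq promoter windows were at hand for 2 of the 3 members, Atp1b2 and Atp1b3, and both are shown because their levels stood in opposite order between ganglion and central myelin spots. Each is the 250 bases before the annotated start in GRCr8, 5′ to 3′ on the minus strand, which carries both genes. Atp1b2 lies at chr10:54823709-54823958 and Atp1b3 at chr8:105821152-105821401. Capitals mark exact matches to the TATA box TATAAA or the GC box GGGCGG, searched on both strands, and no match of either motif overlapped one of the other.
Atp1b2: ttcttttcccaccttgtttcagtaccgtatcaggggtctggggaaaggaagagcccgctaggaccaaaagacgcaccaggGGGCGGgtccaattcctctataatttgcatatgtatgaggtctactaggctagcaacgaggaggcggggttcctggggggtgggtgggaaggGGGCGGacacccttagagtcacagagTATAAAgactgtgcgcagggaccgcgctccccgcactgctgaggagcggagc
Atp1b3: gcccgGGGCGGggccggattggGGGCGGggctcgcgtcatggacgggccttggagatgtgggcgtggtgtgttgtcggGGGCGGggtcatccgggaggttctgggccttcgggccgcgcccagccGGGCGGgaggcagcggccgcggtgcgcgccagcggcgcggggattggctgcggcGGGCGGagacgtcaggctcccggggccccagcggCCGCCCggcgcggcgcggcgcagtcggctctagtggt

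The Atp1b2 window held 1 TATA box, beginning 52 bases before the start, and 2 GC boxes. The Atp1b3 window held 6 GC boxes, of which 5 lay on the strand shown and 1 on the other, and no match to TATAAA. Over 33469 windows of the same length in the table, 12.9% held TATAAA and 30.5% held GGGCGG on either strand. The GC content was 58.0% for Atp1b2 and 79.6% for Atp1b3, against a median of 51.2% over all windows. Atp1b3 had 38 CpG dinucleotides, a number that 1.69% of all windows reached, and Atp1b2 had 12, which 31.5% reached. These matches are a description of the letters and say nothing of binding in this tissue.

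The make-up of the beta subunit UMIs summed over the 3 genes also differed between regions. UMIs are counted near the 3′ end of a transcript, and the share of a gene was compared only with its own share elsewhere. The share of Atp1b1 was 66.9% ± 3.55 in the ganglion (SD, n = 4) and 84.2% ± 4.82 in the central neuron region (n = 2), against 34.3% ± 12.6 in central myelin (n = 4) and 26.3% ± 3.24 in peripheral myelin (n = 2). The last share was 38.5% to 44.4% with 8 or 12 clusters or the marker score (n = 4). The share of Atp1b2 was 2.00% ± 0.55 in the ganglion and 22.2% ± 6.19 in central myelin (both n = 4), and reached 30.6% ± 6.26 in the astrocyte region (n = 2). The ganglion values ran from 1.23% in HC to 2.52% in TN2 and the central myelin values from 16.8% in TN2 to 30.6% in TN3, so the regions did not overlap in any area. Atp1b3 made up 64.5% ± 2.75 of the UMIs in peripheral myelin and 6.46% ± 0.30 in the central neuron region (both n = 2). Where the Atp1b1 share in peripheral myelin was 38.5% to 44.4%, that of Atp1b3 was lower, since the 3 shares sum to the whole.

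**Figure D2:**
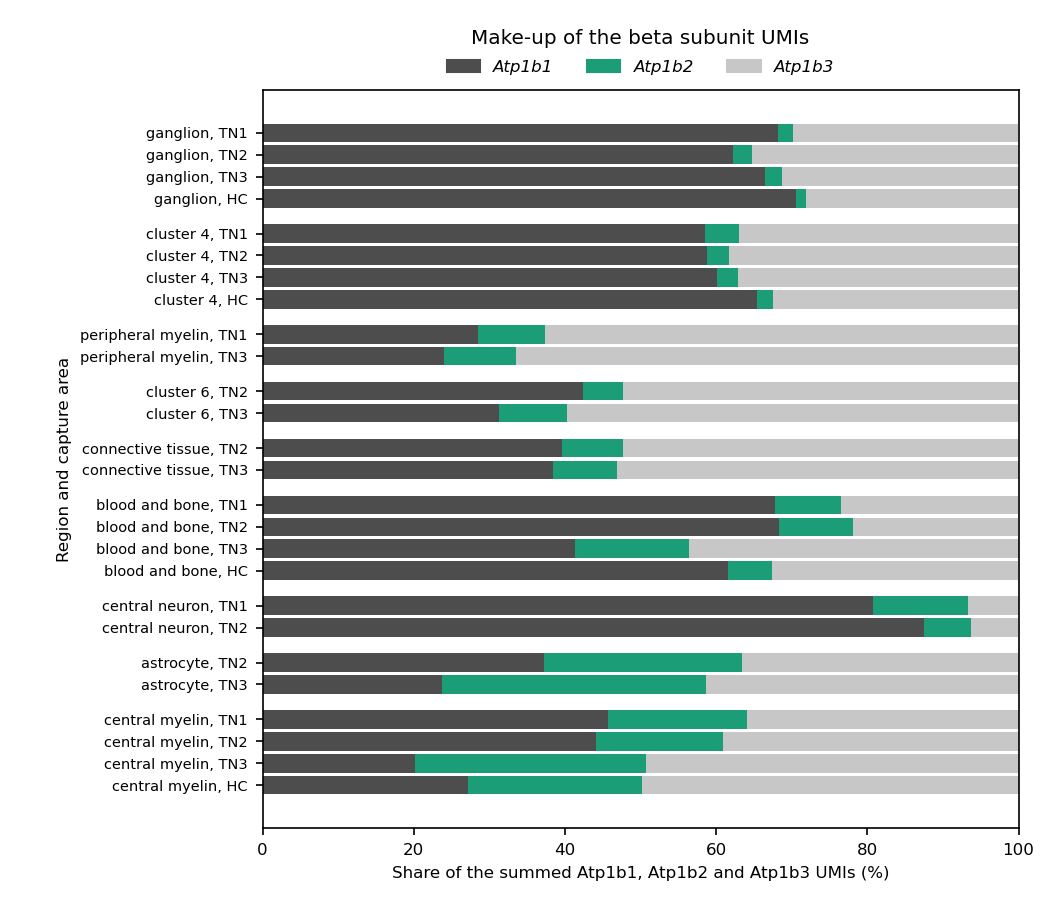
Share of Atp1b1, Atp1b2 and Atp1b3 in their summed UMIs (%, stacked to 100) for each region and capture area with at least 20 spots. The Atp1b2 share is narrow in the ganglion bars (1.23% to 2.52%) and wide in the astrocyte and central myelin bars (16.8% or more). The Atp1b3 share is larger in the peripheral myelin bars (62.57% and 66.46%) than in those of any other region.

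Single spots were compared after depth was made equal. When each spot was thinned to 2000 UMIs, Atp1b2 was detected in 4.22% to 7.65% of ganglion spots over the 4 areas and in 34.3% to 39.3% of central myelin spots. Before thinning these shares were 64.3% to 80.0% and 59.9% to 81.3%, at median depths of 36119 to 49044.5 UMIs in ganglion spots and 4403 to 11342.5 in central myelin spots. All ganglion spots reached 2000 UMIs, as did 206 of 227 central myelin spots of TN3 and all but at most 1 in each other area. Atp1b1 was found in 79.8% to 96.3% of thinned ganglion spots and in 30.1% to 62.5% of thinned central myelin spots. For Atp1b3 the thinned shares were 63.9% to 73.3% and 49.5% to 66.5%, which overlapped.

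Over all spots of an area, Atp1b2 followed the astrocyte markers. Its Pearson correlation with the astrocyte score was between 0.537 and 0.607 in the 4 areas, and with the central myelin score between 0.367 and 0.512. With the sensory neuron score it ran from -0.455 to -0.261. Atp1b1 correlated with the sensory neuron score at 0.748 in HC and 0.608 in TN3, and at 0.192 in TN2 and 0.189 in TN1, and with the central neuron score at 0.355 to 0.641. The low values with the sensory neuron score were those of the 2 areas that held central neuron spots. The correlation of Atp1b3 with the sensory neuron score was 0.279 to 0.421, and its correlation with the astrocyte score was negative in every area. These correlations are over 1256 to 2013 spots of 1 section each, which share a library and differ in depth, and are given as a description.

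**Figure D3:**
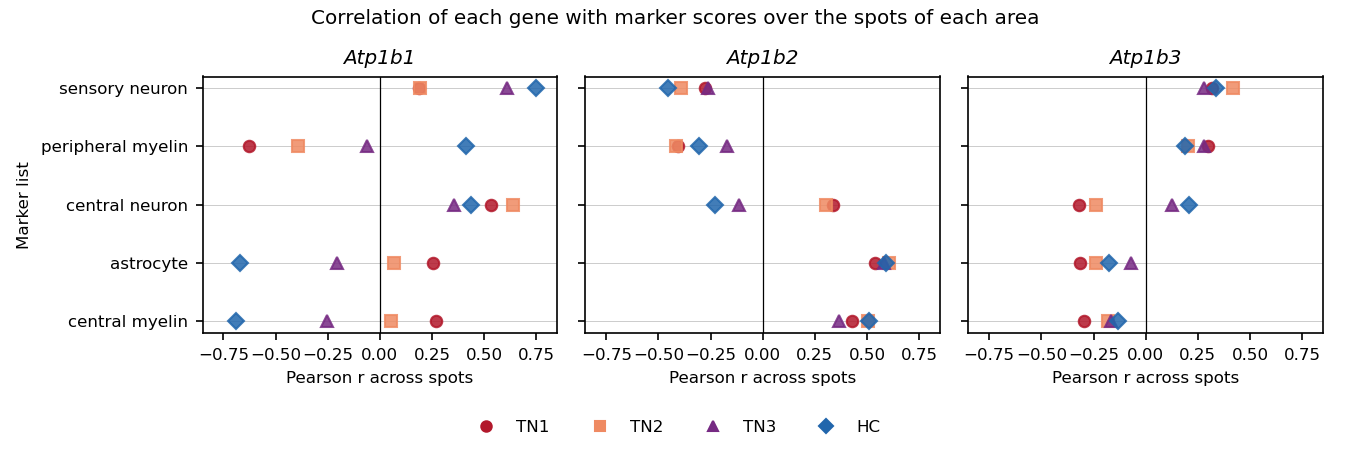
Pearson correlation across spots between each gene and 5 marker scores, with 1 point per capture area. Atp1b2 lies on the positive side for astrocyte (0.537 to 0.607) and central myelin markers in all 4 areas and on the negative side for sensory neuron markers, while Atp1b1 is positive for both neuronal lists.

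Genes with the most similar pattern were sought among 7895 genes with a mean of at least 10 CPM, by Pearson correlation over the 26 units of region and area, which share libraries. The 5 nearest to Atp1b1 were Snap25 (0.986) and Nsf (0.983), both of the synaptic vesicle fusion machinery, the malate-aspartate shuttle enzymes Got1 (0.980) and Mdh1 (0.978), and Zwint (0.976). The plasma membrane calcium pump Atp2b2 had a correlation of 0.961 with it. The 5 nearest to Atp1b2 were the astrocytic glutamate transporter Slc1a3 (0.960), the secreted matrix protein Sparcl1 (0.955), Igsf1 (0.948), Itih3 (0.936) and Mlc1 (0.921), a membrane protein of astrocyte endfeet and a marker on the astrocyte list used here. The 5 nearest to Atp1b3 were less close, from the kinase gene Mapk3 (0.903) through Cc2d1b (0.856), Arhgdia (0.842) and Nsa2 (0.841) to Tprg1l (0.826). The members did not follow each other: the correlation was -0.15 between Atp1b1 and either of the others and -0.52 between Atp1b2 and Atp1b3.

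Genes of related families were also followed across the regions. Atp1b4, a muscle member of the beta family, had no UMI in any region. Among the FXYD regulators, Fxyd7, a brain member of the family, had its highest mean in the ganglion at 700 ± 258 CPM (n = 4), a range that overlapped with cluster 4 at 621.5 ± 122.6 (n = 4), and Fxyd6 was highest in peripheral myelin at 392 ± 5.87 (n = 2).

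Whether the beta subunits differed between compressed and control tissue was tested with edgeR on the UMIs summed per area, with 3 TN areas against 1 HC area. In the ganglion region Atp1b1 was at 1493, 927 and 1349 CPM (TMM-normalised) in TN1, TN2 and TN3 and at 1834 in HC. All 3 TN values lay below HC, as they did for 29.6% of the 12828 genes tested. The log2 difference was -0.55 (SE 0.28, Benjamini-Hochberg adjusted p = 0.571, edgeR), which did not pass the threshold of 0.05. Atp1b2 was at 45.3, 37.6 and 44.1 CPM in TN1, TN2 and TN3 and at 31.9 in HC, and all 3 TN values lay above HC, as for 27.4% of genes. Its log2 difference was 0.41 (SE 0.21, adjusted p = 0.567, edgeR). Atp1b3 was at 653, 527 and 636 CPM against 732 in HC, again all below, with a log2 difference of -0.27 (SE 0.20, adjusted p = 0.660, edgeR). None of the 3 members passed, and edgeR called 0 of the 12828 genes (0%) in this region. At an unadjusted p under 0.05 it counted 1176 (9.17%), and DESeq2 called 119 at an adjusted p under 0.05, none of them a member.

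Most ganglion spots of TN2 were in cluster 8 (326 of 366), whereas all 667 of HC were in cluster 2, which held 147 spots of TN1, 40 of TN2 and 97 of TN3. In cluster 2 alone the differences were smaller, with log2 values of -0.26 for Atp1b1, 0.28 for Atp1b2 and 0.00 for Atp1b3 (adjusted p = 0.647 to 0.996, edgeR). The 10 sensory neuron markers summed to 7016 to 8124 CPM in TN ganglion spots and 8478 in HC. The 6 nerve injury markers (Atf3, Sox11, Sprr1a, Gap43, Csrp3 and Gal) summed to 1345 to 2495 CPM against 510.5, all 6 of them above HC in every TN area. The 6 macrophage markers were at 228.5 to 548.5 CPM against 143.9, and the 6 connective tissue markers at 1078 to 3262 against 1119. Lists of central glia went the other way. The 6 astrocyte markers tested there summed to 248, 327.3 and 364.1 CPM in TN1, TN2 and TN3 against 546.2 in HC. The 8 central myelin markers summed to 172.1, 89.19 and 74.34 CPM against 214.1. The part of these lists in the levels of the beta subunits was not tested.

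In the central myelin region the direction differed by gene. Atp1b1 was at 610, 505 and 175 CPM in TN1, TN2 and TN3 and 304 in HC, so HC lay within the TN range (log2 difference 0.50, SE 0.58, and 0.18 without TN1 or 0.87 without TN3). The 5 central neuron markers tested there summed to 114.5, 77.4 and 8.815 CPM in TN1, TN2 and TN3 and 19.43 in HC. Their part in the level of Atp1b1 was not tested. Atp1b2 was at 247, 192 and 265 CPM against 257 in HC, with a log2 difference of -0.13 (SE 0.25). Atp1b3 was at 479, 447 and 427 CPM against 557 in HC, below it in all 3 areas, as were 21% of the 9101 genes tested (20.5% were above in all 3), with a log2 difference of -0.30 (SE 0.21). Each member had an adjusted p of 0.9998 (edgeR), and edgeR called 0 genes here (0%), with 292 (3.21%) at an unadjusted p under 0.05 and 4 by DESeq2. In blood and bone spots Atp1b2 stood at 112 to 134 CPM in the TN areas and 69.0 in HC, above it in all 3 as for 20.8% of 8322 genes, with a log2 difference of 0.80 (SE 0.40, adjusted p = 0.9999, edgeR). The 10 sensory neuron markers summed there to 1071 to 2836 CPM in TN and 3736 in HC. The 5 macrophage markers tested there summed to 433.3, 735.7 and 1110 CPM against 380.1, and the 3 satellite glia markers tested summed to 709.4 to 748 against 477.4. The full satellite glia list of 5 was not particular to the ganglion. It summed to 2172 and 2168 CPM in the astrocyte region and to 305 to 407.4 in the ganglion. Lists of central glia were mixed in direction in blood and bone. The 6 astrocyte markers tested summed to 1922, 4165 and 3942 CPM in TN1, TN2 and TN3 against 2727 in HC. The 8 central myelin markers summed to 1269, 1115 and 1424 CPM against 1222. The part of these lists in the level of Atp1b2 was not tested. Atp1b3 was below HC in all 3 TN areas, at 252 to 361 CPM against 382, as for 21.8% of genes, and HC lay within the TN range for Atp1b1. edgeR called 3 genes (0.036%) in that region, none a member, and 346 (4.16%) had an unadjusted p under 0.05.

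Over all spots of an area, Atp1b1 was at 554 to 1348 CPM in TN and 1447 in HC (log2 difference -0.69, SE 0.51), and Atp1b2 at 67.7 to 144 CPM in TN and 65.1 in HC (0.64, SE 0.47). Atp1b3 was at 435 to 502 CPM in TN and 659 in HC (-0.47, SE 0.24). For Atp1b1 and Atp1b3 all 3 TN areas were below HC, as for 30.6% of genes, and for Atp1b2 all 3 were above it, as for 28.7%. No member passed (adjusted p = 0.564 to 0.632, edgeR), and edgeR called 0 of 14902 genes (0%), against 1271 (8.53%) at an unadjusted p under 0.05 and 158 by DESeq2. With 1 TN area left out Atp1b1 ran from -1.11 (without TN1, adjusted p = 0.0557, edgeR) to -0.42 (without TN3), and Atp1b2 from 0.29 (without TN1) to 0.88 (without TN2). These sums carried the make-up of each section. Of the 32061 Atp1b1 UMIs of TN1, 13192 came from central neuron spots, which HC lacked. Of the 57305 Atp1b1 UMIs of HC, 46186 came from ganglion spots. Ganglion spots were 33.13% of the HC spots and 8.659% to 29.14% of those of the TN areas. The 10 sensory neuron markers summed over all spots to 3045 to 4592 CPM in TN and 6868 in HC. The part of this make-up in the differences was not tested.

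**Figure D4:**
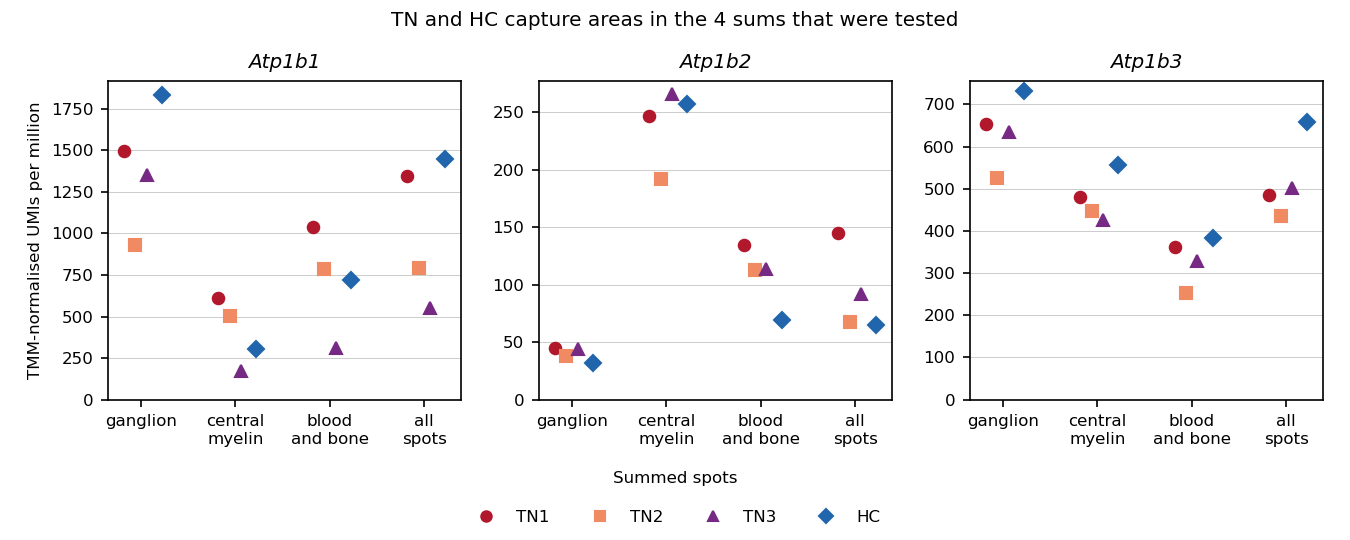
TMM-normalised CPM of each beta subunit gene in the 3 TN areas and HC, for the spots of the ganglion, central myelin and blood and bone regions and for all spots (axes start at 0 and differ between panels). In the ganglion the TN points of Atp1b1 (927 to 1493) and Atp1b3 lie below HC and those of Atp1b2 above it.

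Whether the TN against HC difference itself differed between ganglion and central myelin was tested with an interaction term in a fit that blocked on capture area. For Atp1b1 the ganglion difference was lower by 0.95 on the log2 scale (log2 -0.95, SE 0.54, adjusted p = 0.931, edgeR). For Atp1b2 it was higher by 0.53 (SE 0.25, adjusted p = 0.928, edgeR), and for Atp1b3 the 2 regions differed by 0.01 (SE 0.25). In all, 3 of 12771 genes (0.0235%) passed, none a member, and 663 (5.19%) had an unadjusted p under 0.05. The Atp1b1 value rested on which areas were used: without TN3 it was -1.53, and over the alternatives tried it ran from -1.53 to -0.53. In central myelin the 6 central neuron markers summed to 122.7 and 85.06 CPM in TN1 and TN2, 9.459 in TN3 and 18.83 in HC. Their part in the Atp1b1 value was not tested.

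Within the TN areas the levels of the beta subunit genes were compared between the 2 clusters of the ganglion region, as a description without a test. Cluster 8 was led by Csrp3, Gal, Reg3b, Vip and Vgf, and its 10 leading genes held 2 of the nerve injury list and none of the sensory neuron list, although the sensory neuron list scored highest in it among the lists used for naming. Atp1b1 stood at 1626 CPM in cluster 2 and 1154 in cluster 8 of TN1, at 1371 and 873 in TN2, and at 1597 and 922 in TN3, so it was lower in cluster 8 in 3 of 3 areas. The log2 difference was -0.65 ± 0.15 (SD, n = 3), a level 1.56-fold lower, and 30.7% of 7668 genes were lower in cluster 8 in all 3 areas. Atp1b3 was 696, 807 and 683 CPM in cluster 2 and 547, 491 and 558 in cluster 8, a log2 difference of -0.45 ± 0.23 (SD, n = 3). Atp1b2 was lower in cluster 8 in TN1 (47.0 against 41.3 CPM) and higher in TN2 (29.6 against 40.1) and TN3 (37.3 against 56.5), a log2 difference of 0.28 ± 0.41 that was within its spread.

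Of the 4 FXYD genes compared in the same way, 3 had 1 direction in all 3 areas. Fxyd7 was lower in cluster 8 in 3 of 3 areas, by 1.09 ± 0.27 on the log2 scale (SD, n = 3). Fxyd6 was higher in 3 of 3, by 0.86 ± 0.50, and Fxyd1, the regulator also called phospholemman, by 0.57 ± 0.20, as were 26.7% of genes. Fxyd2 was lower in cluster 8 in 2 of 3 areas, with a log2 difference of -0.12 ± 0.57. In cluster 8 the nerve injury markers summed to 2248 to 2794 CPM, against 909 to 1235 in cluster 2 of the same areas. Peripheral myelin markers were at 10420 to 13080 CPM against 5814 to 8242, and macrophage markers at 311 to 609 against 199.9 to 301. The sensory neuron markers summed to 6827 to 8113 CPM in cluster 8 and 7122 to 10820 in cluster 2. The part of these lists in the lower Atp1b1 and Atp1b3 was not tested.

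**Figure D5:**
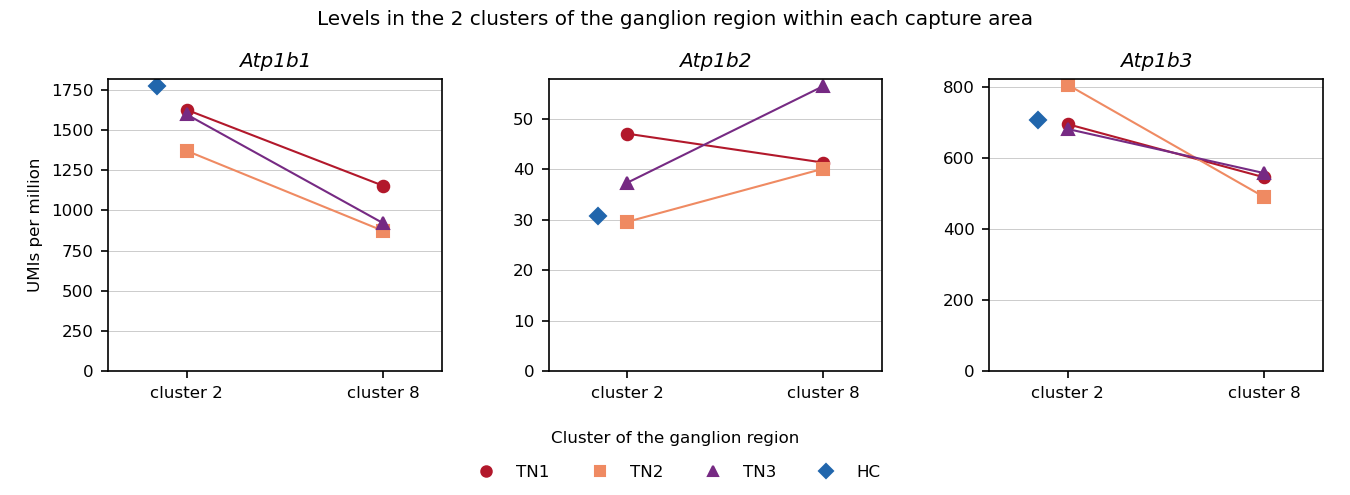
CPM of the beta subunit genes in clusters 2 and 8 of the ganglion region, with a line for each TN area and a diamond for cluster 2 of HC, which had no cluster 8 spot (axes start at 0). Atp1b1 and Atp1b3 are lower in cluster 8 in all 3 areas, and Atp1b2 goes in both directions.

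Other genes of sodium, potassium and calcium transport gave the setting for the TN against HC values of the ganglion. Of 31 genes on these lists 17 could be tested there. None passed the adjusted threshold, 2 were lower and 0 higher at an unadjusted p under 0.05 (over all genes 4.51% lower and 4.65% higher), and the median log2 difference was -0.28, against 0.03 over all genes. The 2 lower genes, identified after their values were seen, were Fxyd7 and Atp2a3, a calcium pump of the endoplasmic reticulum. Fxyd7 was at 725, 387 and 651 CPM in TN1, TN2 and TN3 and 1059 in HC (log2 difference -0.85, SE 0.34, adjusted p = 0.538, edgeR). Without TN1 Fxyd7 passed, with a log2 difference of -1.03 and an adjusted p of 0.0117 (edgeR), in a fit that called 1087 genes. In cluster 2 alone it was at -0.37 with an adjusted p of 0.463 (edgeR). Fxyd6 had a log2 difference of 0.49 (SE 0.31), Fxyd2 of 0.98 (SE 0.81) and Fxyd1 of -0.05 (SE 0.30). The Fxyd2 value came with TN1, at 343 CPM, since TN2 and TN3 were at 117 and 76.4 and HC at 90.9, and without TN1 it was 0.09. Of the 6 P-type calcium pumps tested, 5 were below HC in all 3 TN areas, as were 29.6% of all genes tested, and Atp2b4 was above it in all 3, at 30.5, 50.3 and 33.0 CPM against 24.3, as were 27.4%.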

How the data were processed

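UMIs per gene and spot were counted by the authors with Space Ranger (version 1.2.0 per the file headers) and deposited as whole-number counts, without normalization, in 1 matrix of 32623 genes and 6773 spots. Neither genome build nor annotation release is given in the sources used here. Members, gene lists and tests were chosen with earlier results of these data known.

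After SCTransform (sctransform 0.4.2, Seurat 5.3.0) of 16088 genes, the 3000 most variable genes without 12 genes of the pump's subunits and the FXYD family gave 30 principal components and, by K-means with 50 starts, 10 clusters. A cluster took the name of the marker list with the highest mean log2 (CPM + 5) centred over clusters, and stayed unnamed where a second list came within 0.25. The nerve injury, satellite glia and endothelial lists named no cluster. Pecam1 and Atp2a1 were not found by symbol. Ratios between regions used CPM plus 1 and areas with at least 20 spots.

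UMIs were summed per area and tested with edgeR 4.0.16 in R 4.3.3 (TMM, filterByExpr, quasi-likelihood test, Benjamini-Hochberg at 0.05). A region was tested where every area had at least 20 of its spots. The SE of a log2 difference was worked back from the test, as its absolute value over the square root of the quasi-likelihood F statistic. HC, with 1 area, was taken to vary like TN. DESeq2 1.42.0, its size factors, no filter, other spots and clusters, and each TN area left out were the alternatives. The tests were tested on simulated data. Named were the members, Fxyd1, Fxyd2, Fxyd6, Fxyd7, pathway genes past the threshold, and the 5 genes nearest to each member. Intervals were not printed for shares of spots, and counting error alone does not cover the spread between animals. Some genes that the rule also named are not reported here. No doublet caller was applied to spots.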

Additional observations from a re-analysis of the deposited data

How the results depend on the processing

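The direction and side of the threshold of each tested gene held in 209 alternative results, 9 turned direction and 2 passed the threshold. Atp1b1, Atp1b2 and Atp1b3 kept their direction in the ganglion and over all spots under every alternative run, with 0.00 for Atp1b3 in cluster 2 alone. The turned values of Atp1b2 in central myelin were 0.01 without TN2 (from -0.23 to 0.01 with 1 area left out) and 0.26 with spots placed by their highest marker score. For Atp1b1 in blood and bone they were 0.00 with spots of at least 500 genes and 1000 UMIs, and 0.34 without TN3. For the interaction of Atp1b3 they were -0.06 without TN1 and -0.07 without TN3 (-0.07 to 0.10 with 1 area left out) and -0.02 with 8 clusters. In the ganglion they were 0.12 for Fxyd1 without TN1 (-0.24 to 0.12 with 1 area left out) and -0.04 for Fxyd6 in cluster 2 alone. The cause was not tested.

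Leaving out 1 TN area gave log2 ranges in the ganglion of -0.69 to -0.35 for Atp1b1, 0.35 to 0.51 for Atp1b2 and -0.33 to -0.16 for Atp1b3. The interaction of Atp1b1 ran from -1.53 to -0.53 and passed without TN3. Counts of genes called moved more, by edgeR in all but the DESeq2 alternative, which used its own test. In the ganglion, against 0 in the report, they were 119 with DESeq2, 31 with no filter on low counts, 1 with the marker score, 5 in cluster 2 alone, and 0 to 1087 with 1 TN area left out (1087 without TN1). In central myelin, against 0, they were 4 with DESeq2, 3 with no filter and 0 to 446 with 1 area left out (446 without TN1). In blood and bone, against 3, they were 8, 61 and 17 to 383 (383 without TN1). Blood and bone was not tested with 12 clusters or the marker score, since TN2 then had 16 and 6 spots. Over all spots, against 0, DESeq2 called 158, and leaving out 1 area gave 0 to 2171 (2171 without TN1). The interaction, with 3 in the report, had 88 with no filter, 0 with cluster 2 alone, and 3 to 106 with 1 area left out (106 without TN3, 68 without TN1).

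Ratios between regions moved beyond 1 SD in 12 alternative results and by less in 129. Ganglion against peripheral myelin was 1.77, 1.89 and 1.59 for Atp1b1 with 8 clusters, 12 clusters and the marker score, and -0.41, -0.57 and -0.42 for Atp1b2, and 0.37 for Atp1b3 with the marker score. Astrocyte against central myelin was 0.71 and 0.72 for Atp1b2 with 12 clusters and the marker score. With the marker score, ganglion against central myelin was 0.64 for Atp1b3, and central neuron against central myelin was 1.54 for Atp1b1 and -0.85 for Atp1b3. Shares of beta subunit UMIs moved beyond 1 SD in 12 results and by less in 63.

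No paired analysis was possible because HC is 1 area pooled from 2 animals, so the groups share fewer than 2 replicate numbers, and which TN animals gave it, if any did, is not stated. With 3 areas against 1, the fits have 2 residual degrees of freedom, and fewer with 1 TN area left out. Depth was least in blood and bone, with 378402 UMIs in TN2, and then in central myelin, with 1081625.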
